A study of Homo sapiens with 6 samples.

Results

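The genes described here build the lysosomal platform of mTORC1, the growth-promoting kinase complex that senses amino acids. They are 10 of the 20037 protein-coding genes on chromosomes 1 to 22, X and Y. RRAGC, RRAGB and RRAGD encode Rag GTPases. LAMTOR1, LAMTOR2 and LAMTOR4 encode subunits of Ragulator, the complex that holds the Rags on the lysosome. FLCN encodes folliculin, FNIP1 its partner, RPTOR the raptor subunit of mTORC1, and BLOC1S1 a subunit of the BORC complex that positions lysosomes. The genes were chosen from this pathway with the peaks of these libraries already known, so how often they carry a peak is a description and not a finding. A peak counted for a gene when its summit lay inside the gene or within 3 kb of its start or end in hg38. By this rule 18 peaks belonged to 7 of the 10 genes, and RRAGD, LAMTOR2 and FLCN had none.

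LNCaP, an androgen-responsive human prostate cancer line, and PC3, an androgen-independent one, were each profiled with an antibody to PRMT5, an antibody to METTL3 and a control. PRMT5 is an arginine methyltransferase, and METTL3 the catalytic part of the enzyme that places N6-methyladenosine in RNA. The cells were grown in serum-containing medium, and the labels name no treatment, time point or genetic change. In the assay, an antibody-tethered Tn5 transposase tags chromatin where the target sits. Each library took 100000 cells and was amplified over 16 PCR cycles. There were 6 libraries, 1 per group. The control libraries are titled IgG, their antibody field names a secondary antibody, and they enter here only through the peak calls. On these chromosomes the PRMT5 lists held 980 peaks in LNCaP and 1661 in PC3, and the METTL3 lists 173 and 7453. With 1 library per group there is no spread between replicates and no test. The read depth is unknown, so a missing peak may be absent or only undetected.

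Rag GTPases work as pairs, in which RagA or RagB joins RagC or RagD. When amino acids are plentiful, Rags on Ragulator bind raptor and bring mTORC1 to the lysosome, and the folliculin complex acts on RagC and RagD. Through this route mTORC1 also keeps TFEB and TFE3, transcription factors of the MITF family, out of the nucleus. These factors bind the E-box core CACGTG, often as part of the longer CLEAR element of lysosomal gene promoters. The same core is bound by other factors, among them USF1, USF2 and MYC with MAX.

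The promoters at the centre of these results are shown first, because each of the 6 genes with a LNCaP PRMT5 peak at its start also holds an E-box core there. Each line gives RefSeq sequence of GRCh38.p14, 5′ to 3′ on the gene's strand, from 250 bases before the start up to the base before it, or up to the last E-box base where that lies beyond the start. Capitals mark CACGTG. The stretches are chr1:38859773-38860022 on the minus strand for RRAGC, chrX:55717499-55717761 on the plus strand for RRAGB, chr11:72103298-72103547 on the minus strand for LAMTOR1, chr7:100148668-100148917 on the plus strand for LAMTOR4, chr5:131797018-131797267 on the minus strand for FNIP1, and chr12:55715796-55716049 on the plus strand for BLOC1S1. LAMTOR2, at chr1:156054532-156054781 on the plus strand, is a member without a peak and without these letters, and is shown for contrast.
RRAGC: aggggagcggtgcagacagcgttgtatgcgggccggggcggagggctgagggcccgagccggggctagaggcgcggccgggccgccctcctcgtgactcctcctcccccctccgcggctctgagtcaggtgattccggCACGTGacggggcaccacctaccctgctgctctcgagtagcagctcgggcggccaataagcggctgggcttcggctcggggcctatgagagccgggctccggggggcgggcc
RRAGB: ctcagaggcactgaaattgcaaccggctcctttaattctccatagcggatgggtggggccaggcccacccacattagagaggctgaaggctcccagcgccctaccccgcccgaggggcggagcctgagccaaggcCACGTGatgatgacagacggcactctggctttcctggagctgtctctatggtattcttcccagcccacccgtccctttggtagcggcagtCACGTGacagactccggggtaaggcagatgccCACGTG
LAMTOR1: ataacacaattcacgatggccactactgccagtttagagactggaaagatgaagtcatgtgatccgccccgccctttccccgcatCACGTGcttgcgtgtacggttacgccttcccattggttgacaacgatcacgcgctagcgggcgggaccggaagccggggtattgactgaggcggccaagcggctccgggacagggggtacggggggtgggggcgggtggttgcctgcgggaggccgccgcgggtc
LAMTOR4: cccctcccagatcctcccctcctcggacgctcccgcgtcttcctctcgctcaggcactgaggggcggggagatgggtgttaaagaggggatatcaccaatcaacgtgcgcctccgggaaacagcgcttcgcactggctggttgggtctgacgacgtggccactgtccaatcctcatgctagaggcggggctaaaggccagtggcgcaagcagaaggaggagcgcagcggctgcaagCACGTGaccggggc
FNIP1: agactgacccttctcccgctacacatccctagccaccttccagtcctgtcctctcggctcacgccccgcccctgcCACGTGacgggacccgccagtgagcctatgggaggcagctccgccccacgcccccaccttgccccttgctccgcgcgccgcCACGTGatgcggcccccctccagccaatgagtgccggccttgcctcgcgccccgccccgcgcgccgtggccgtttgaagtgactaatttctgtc
BLOC1S1: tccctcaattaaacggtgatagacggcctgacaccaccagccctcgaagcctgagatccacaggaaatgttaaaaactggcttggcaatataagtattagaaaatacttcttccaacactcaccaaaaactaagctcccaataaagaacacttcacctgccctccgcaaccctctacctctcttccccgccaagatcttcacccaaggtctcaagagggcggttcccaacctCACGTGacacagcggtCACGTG
LAMTOR2: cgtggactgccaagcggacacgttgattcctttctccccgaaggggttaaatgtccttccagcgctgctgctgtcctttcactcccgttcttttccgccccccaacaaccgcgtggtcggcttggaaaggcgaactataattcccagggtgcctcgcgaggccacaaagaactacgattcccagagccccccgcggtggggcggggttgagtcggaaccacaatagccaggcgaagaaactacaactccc

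In LNCaP, 6 of the 10 genes had a PRMT5 peak, where 3.08% of all protein-coding genes did. In PC3, 5 of the 10 had a PRMT5 peak, beside 4.59% of all genes. They overlapped by 4 genes, RRAGC, LAMTOR1, FNIP1 and BLOC1S1, and 1.39% of all genes had a PRMT5 peak in both lines. At 3 of these 4, RRAGC, LAMTOR1 and FNIP1, the peaks of the lines overlapped each other by at least 1 bp, beside 1.14% of all genes. Nothing is read from these shares, since the peaks were known when the genes were chosen. The same holds for where the peaks sat, since the rule uses the summit's position. Each LNCaP PRMT5 peak of these genes had its summit within 148 bp of the gene's start.

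Among the Rag GTPases, RRAGC (chromosome 1, positions 38838198 to 38859772, minus strand) had the stronger signal. RRAGC encodes RagC. In LNCaP its PRMT5 peak, at positions 38859757 to 38860245, had a fold of 16.1 over the control and a −log10 q of 24.4, and ranked 45 of 980 by fold. In PC3 the peak, at positions 38859796 to 38860025, had a fold of 11.5 and a −log10 q of 15.9, and ranked 67 of 1661. These folds are the authors' caller's own values, as are all folds here, and they are comparable within a list only. The summits lay 92 bp upstream of the start in LNCaP and 154 bp upstream in PC3, 62 bp apart. Both also lay beside the start of RRAGC-DT, a divergent noncoding transcript, at 29 bp and 33 bp, so the peak cannot be assigned to one of the pair. MYCBP and the readthrough locus GJA9-MYCBP have an end 2626 bp from the LNCaP summit.

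RRAGB (chromosome X, positions 55717749 to 55758774, plus strand) encodes RagB, which can take the place of RagA. Its LNCaP PRMT5 peak, at positions 55717578 to 55717928, had a fold of 7.56 and a −log10 q of 6.69, rank 332 of 980, with the summit 87 bp upstream of the start. No PC3 PRMT5 peak met the rule, and the nearest was 6.45 Mb away. PC3 METTL3 had a peak inside the gene, 11004 bp past the start, with a fold of 4.70 and a −log10 q of 2.84. This pair of values was shared by 514 other peaks of that list, and the rank was 4770 of 7453. RRAGB thus had a PRMT5 peak at its promoter in LNCaP and a METTL3 peak elsewhere in the gene in PC3.

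RRAGD (chromosome 6, positions 89364616 to 89412273), which encodes RagD, had no peak in any list by the rule. The peak nearest to it was a PC3 METTL3 peak 3265 bp beyond 1 of its ends, with a fold of 6.22, and it fell just outside the 3 kb limit. The nearest PRMT5 peaks were 2.21 Mb away in LNCaP and 18.3 Mb away in PC3. No promoter window of RRAGD was used here.

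The Ragulator genes did not resemble one another. LAMTOR1 (chromosome 11, positions 72097292 to 72103297, minus strand) encodes the lipid-anchored subunit that ties Ragulator to the lysosomal membrane. Its LNCaP PRMT5 peak, at positions 72103230 to 72103780, had a fold of 23.8 and a −log10 q of 49.7. It ranked 16 of 980, the highest rank of any of the 10 genes in that list. In PC3 the peak, at positions 72103438 to 72103824, had a fold of 2.54 and a −log10 q of 1.47, near the weak end of its list at rank 1624 of 1661. The summits lay 148 bp and 154 bp upstream of the start, 6 bp apart. The difference in fold between the lines was not tested, having 1 library each with its own control and unknown depth. TOMT and ANAPC15 also have an end within 3 kb of these summits, 2479 bp and 2927 bp from the LNCaP one, as does the pseudogene LOC124902837 at 629 bp.

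LAMTOR4 (chromosome 7, positions 100148918 to 100154203, plus strand), a small Ragulator subunit, had a LNCaP PRMT5 peak of fold 6.99 and −log10 q 5.30 at positions 100148642 to 100148961. Its summit lay 57 bp upstream of the start, and its values were shared by 25 other peaks of the list. The nearest PC3 PRMT5 peak was 57.7 kb away, with a fold of 5.19. LAMTOR2 (chromosome 1, positions 156054782 to 156058506, plus strand), whose product pairs with that of LAMTOR3 within Ragulator, had no peak. Its nearest PRMT5 peaks lay 280 kb away in LNCaP, beside CCT3 and TSACC, and 42.3 kb away in PC3. So within Ragulator the range ran from one of the strongest LNCaP PRMT5 promoter peaks to none.

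The folliculin complex was split in the same way. FNIP1 (chromosome 5, positions 131641714 to 131797017, minus strand) had a LNCaP PRMT5 peak at positions 131797073 to 131797270 with a fold of 10.3 and a −log10 q of 17.6, rank 151 of 980. Its PC3 peak, at positions 131797055 to 131797298, had a fold of 8.83 and a −log10 q of 9.06, rank 159 of 1661. The summits lay 146 bp and 201 bp upstream of the start, 55 bp apart, and no other gene had an end within 3 kb of them.

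FLCN (chromosome 17, positions 17212212 to 17237330, minus strand) had no peak by the rule. PRMT5 peaks of both lines lay 5.58 kb and 5.66 kb beyond its end, with folds of 5.29 in LNCaP and 4.97 in PC3, and these overlapped by 104 bp. They were 294 bp and 215 bp from an end of PLD6, a neighbouring gene. A window of 5 kb does not reach them.

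RPTOR (chromosome 17, positions 80544838 to 80966368, plus strand) differed from the others: its 7 peaks were all in PC3 and none was at its start. At 422 kb it is also the longest of the 10 genes. PC3 PRMT5 gave 5 peaks, with folds of 7.89, 5.89, 5.33, 5.33 and 6.45 from start to end. They lay at 89.4 kb, 182 kb and 198 kb from the start and at 107 kb and 2.87 kb from the end. For those at 182 kb, 198 kb and 107 kb, another coding gene had a nearer end than RPTOR. The fold and q of the peak at 182 kb were shared by 42 other peaks of the list. PC3 METTL3 gave 2, with folds of 6.58 and 4.64. One of them, at positions 80634336 to 80634706, overlapped the first PRMT5 peak, at positions 80634272 to 80634816, by 371 bp, with summits 192 bp apart. The 2 lists share a control, and what that adds to the overlap was not tested. In LNCaP no peak fell in RPTOR. The nearest LNCaP PRMT5 peak was 443 kb away, 132 bp from an end of GAA, which encodes lysosomal acid alpha-glucosidase.

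Set against length, the PC3 PRMT5 peaks in RPTOR amounted to 11.9 per Mb, where protein-coding genes as a whole held 0.716 per Mb. Of 483 coding genes of at least 400 kb, 3 held 5 or more, RPTOR included, and 8.28% held any. RPTOR was chosen with its peaks already known, so its density and its place among long genes are a description only. The stretches of 1 Mb on each side of RPTOR held 6 and 12 PC3 PRMT5 peaks, 9.0 per Mb, close to the density in the gene itself. PC3 METTL3 gave 4.74 per Mb in RPTOR, from 2 peaks, and 2.54 per Mb over coding genes, and 227 of the 483 long genes had at least 2. Its flanks held 6 peaks before and 0 after the gene, 3.0 per Mb. LNCaP PRMT5 had 2.50 per Mb in the flanks and none in the gene.

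**Figure D1:**
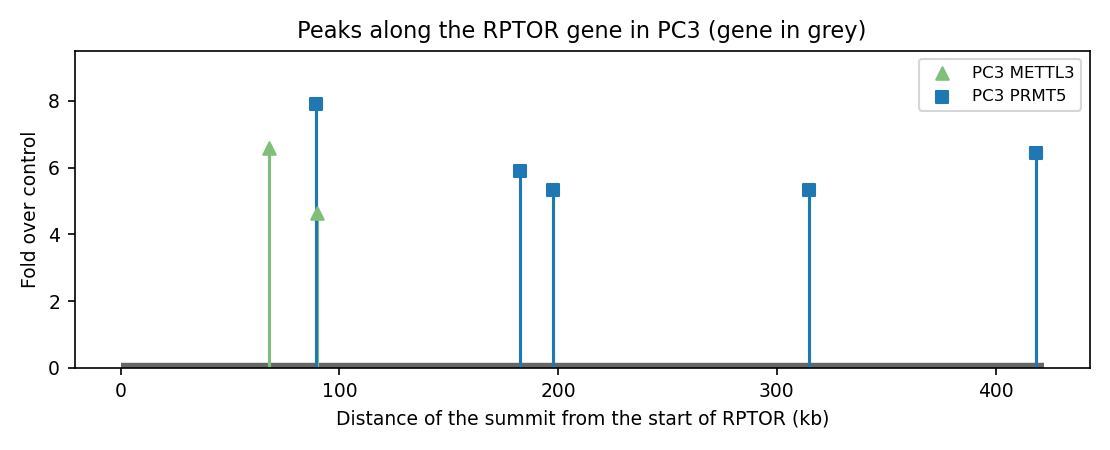
Peaks along RPTOR in PC3, by distance of the summit from the gene's start (horizontal axis, kb) and fold over the control (vertical axis), with the gene in grey. PRMT5 peaks (squares) have folds of 5.33 to 7.89 and METTL3 peaks (triangles) of 4.64 and 6.58, none at the start.

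BLOC1S1 (chromosome 12, positions 55716046 to 55719703, plus strand) belongs to BORC, which recruits the small GTPase ARL8 to move lysosomes outward, and to the related BLOC-1 complex. In LNCaP its PRMT5 peak, at positions 55715965 to 55716197, had a fold of 11.3 and a −log10 q of 16.8, rank 120 of 980, with the summit 9 bp past the start. The start of the readthrough locus BLOC1S1-RDH5 was 21 bp away and an end of ITGA7 345 bp away. In PC3 the peak counted for BLOC1S1 was another one, 1548 bp beyond its end and 5.20 kb from the LNCaP summit, with a fold of 8.83. That summit lay nearer to RDH5, 858 bp from its start, and 2284 bp from an end of CD63, a lysosomal membrane protein gene. When each peak was given only to the coding gene with the nearest end, BLOC1S1 kept its LNCaP peak and lost this one.

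LNCaP METTL3 had none at any of the 10, beside 0.389% of all coding genes with one, and its nearest peaks lay 0.703 Mb (FNIP1) to 23.2 Mb (LAMTOR4) away, with a median of 6.52 Mb. PC3 METTL3 had peaks at 2 of the 10, RRAGB and RPTOR, beside 11.6% of all coding genes, and all 3 of these peaks lay inside the gene, more than 3 kb from either end. Counts this small are near what those shares give for any 10 genes, and nothing is read from them. None of the promoter windows at hand for 9 of the genes held a METTL3 summit, and of all 34943 windows 3 did in LNCaP and 19 in PC3.

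**Figure D2:**
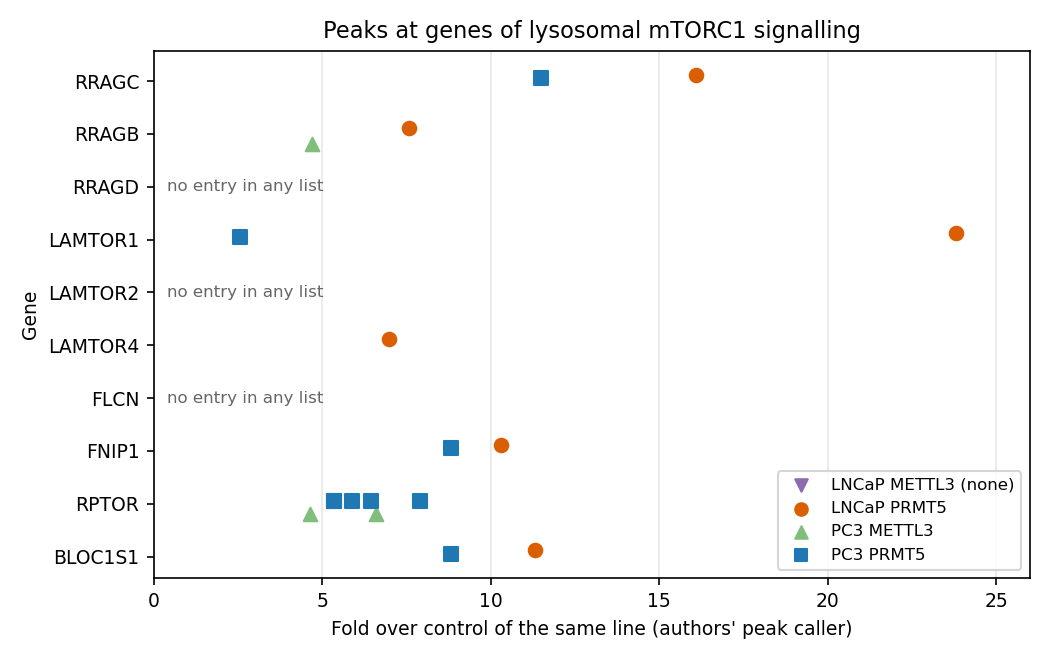
Fold over the control of the same line, as the authors' caller gave it (horizontal axis), for each peak of each gene (vertical axis), with 1 symbol per list and a small vertical offset between lists. LAMTOR1 and RRAGC reach 23.8 and 16.1 in LNCaP PRMT5 and have 2.54 and 11.5 in PC3 PRMT5; the 2 RPTOR peaks of fold 5.33 coincide.

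The feature the 6 LNCaP promoter peaks shared was the E-box core. RefSeq promoter windows, from 250 bases before to 50 after a start, were at hand for 9 of the 10 genes, with 2 for BLOC1S1. The letters CACGTG, a palindrome and so the same on both strands, stood in windows of 6 of these 9 genes: RRAGC, RRAGB, LAMTOR1, LAMTOR4, FNIP1 and BLOC1S1. Of 34943 windows on these chromosomes, 7.23% held them. The 6 were exactly the members with a LNCaP PRMT5 summit in the window, which 0.569% of all windows had. The 4 windows of these genes with no PRMT5 summit in either line, those of LAMTOR2, FLCN and RPTOR and the second of BLOC1S1, did not hold the letters. In PC3, 3 windows of these genes held a PRMT5 summit, those of RRAGC, LAMTOR1 and FNIP1, beside 0.446% of all windows, and all 3 held the core.

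The cores lay close to the summits. There were 10 in the 6 windows, and all 10 lay inside the LNCaP PRMT5 peak of their gene. In RRAGC, with bases counted upstream from the start as negative numbers, the core began at −112, 15 bp from the LNCaP summit and 42 bp from the PC3 summit. In LAMTOR1 it began at −165, 12 bp and 6 bp from the summits of LNCaP and PC3. FNIP1 had cores at −175 and −94, the first of them 24 bp from the LNCaP and 26 bp from the PC3 summit.

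LAMTOR4 and BLOC1S1 had their cores nearest to the start. The LAMTOR4 core began at −14, 43 bp from the summit. The BLOC1S1 cores began at −18 and −2, the second spanning the start, 22 bp and 6 bp from the LNCaP summit. RRAGB had 3, at −115, −25 and 8 bases into the gene, and the first was nearest to the summit, at 23 bp. In each gene the core nearest to the LNCaP summit was therefore within 43 bp of it.

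**Figure D3:**
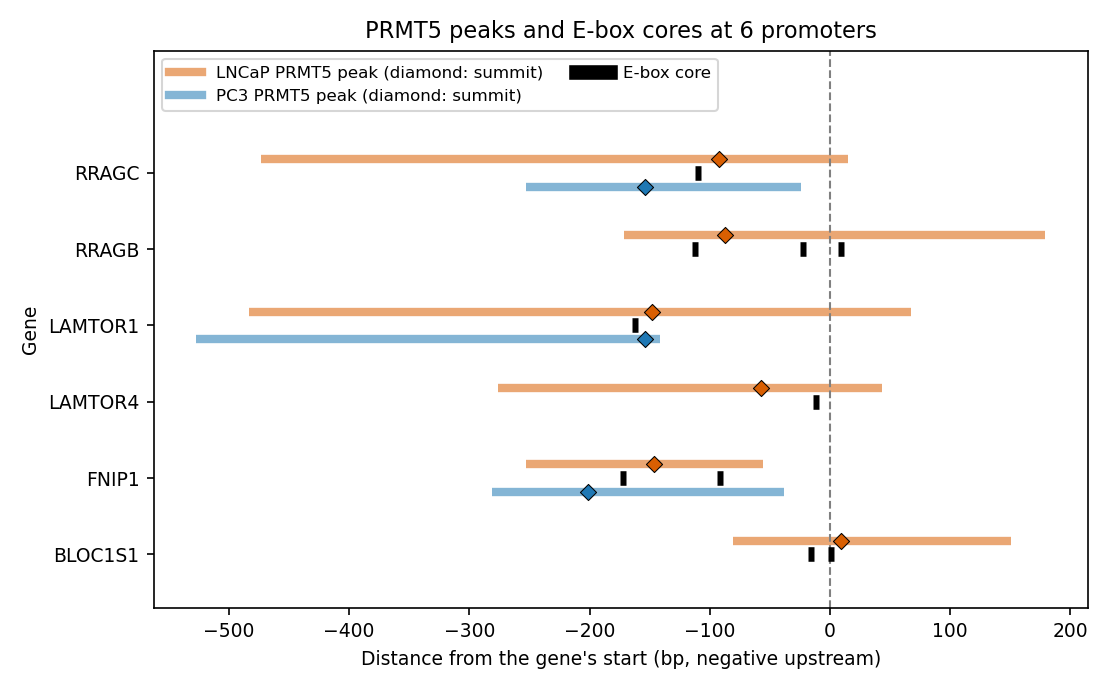
PRMT5 peaks (bars, with the summit as a diamond) and E-box cores (black) at the 6 promoters, by distance from the gene's start in bp (horizontal axis, negative upstream) for each gene (vertical axis). Every LNCaP peak covers the cores of its gene; RRAGB and LAMTOR4 have no PC3 peak, and that of BLOC1S1 lies 5.20 kb away, outside the plot.

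Longer spellings of the core were less even. All 6 genes had the core extended on one side to TCACGTG or its reverse complement, which 3.69% of all windows held. GTCACGTG, or its reverse complement, stood in 5 of them, all but LAMTOR1, beside 2.39% of windows. TCACGTGA stood in 2, RRAGB and BLOC1S1, beside 0.979%. These spellings contain CACGTG and overlap one another, so they are not separate matches. The related letters TCATGTG, or their reverse complement, were found in the LAMTOR1 window alone, beside 2.93% of all windows. GACGTC, a palindrome of the same base composition, was in none of the 10 windows of these genes, beside 5.01% of all windows.

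This was not particular to the 10 genes. With them left out, 154 of 193 windows with a LNCaP PRMT5 summit, 79.8% (95% exact Clopper-Pearson interval 73.4 to 85.2), held CACGTG. With them in, it was 160 of 199, 80.4% (74.2 to 85.7). For PC3 PRMT5 it was 114 of 156, 73.1% (65.4 to 79.9), and for windows with a PRMT5 summit in both lines 86 of 92, 93.5% (86.3 to 97.6). Windows with no PRMT5 summit held it in 6.74%. The intervals cover counting error only, and windows of neighbouring genes can overlap and share a peak. Counted by peak, 124 of the 155 LNCaP PRMT5 summits in windows shared a window with the core, at a median distance of 23 bp. Of the 124, 99 were within 50 bp. For PC3 PRMT5 it was 85 of 116, at a median of 28 bp, with 63 of the 85 within 50 bp. The PRMT5 lists held 980 peaks in LNCaP and 1661 in PC3. Most of their summits thus lay outside the windows and were not searched for the core.

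Windows with a PRMT5 summit were richer in CpG and in G or C than windows as a whole. The median window with a LNCaP PRMT5 summit held 28 CpG and 66.3% G or C, where all windows held 14 and 58.7%. The medians were 27 CpG and 66.0% with a PC3 PRMT5 summit, and 28 and 66.5% with one in both lines. Among windows with at least 28 CpG and no PRMT5 summit, with medians of 35 CpG and 73.0% G or C, 9.37% held CACGTG. The comparison letters GACGTC stood in 6.53% (3.52 to 10.9) of the windows with a LNCaP PRMT5 summit. The windows of the 6 genes ranged from 14 CpG, in RRAGB and the first window of BLOC1S1, to 35 in RRAGC. A match is a description of letters. Which protein, if any, sits on these cores was not measured, and the part of base composition in these shares was not tested beyond the values given.

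**Figure D4:**
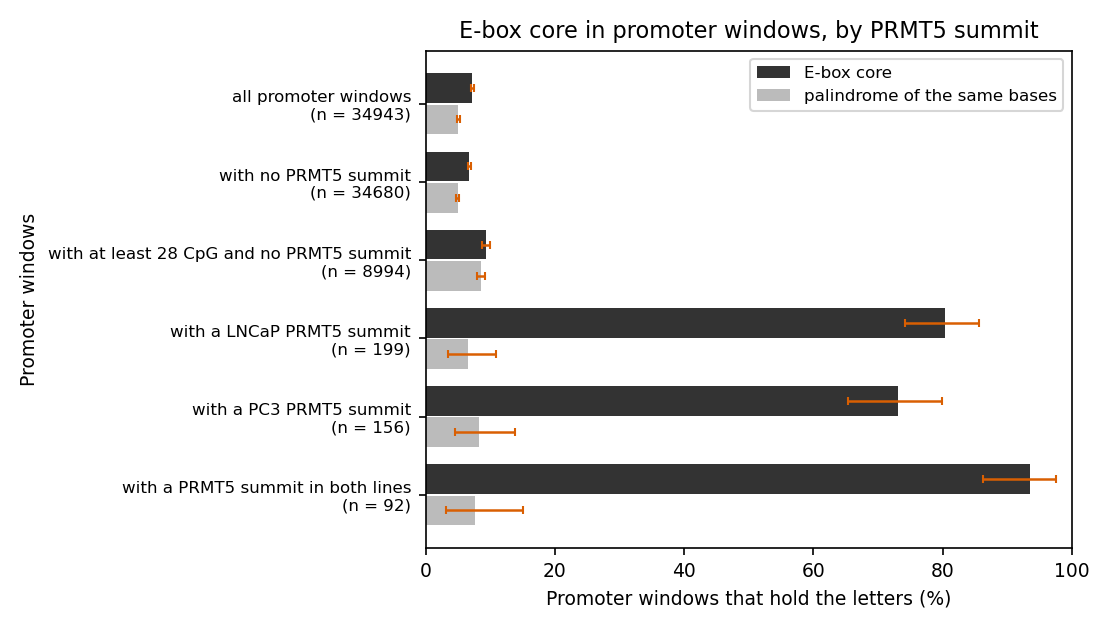
Share of promoter windows that hold the E-box core CACGTG (dark bars) or the palindrome GACGTC (light bars), in percent (horizontal axis), for windows grouped by PRMT5 summit (vertical axis), with exact 95% intervals. The core stands in 80.4% and 73.1% of windows with a LNCaP or PC3 PRMT5 summit and 7.23% of all windows; GACGTC stands in 4.99 to 8.57% of the windows in the groups shown.

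Other genes of the pathway were counted by the same rule. A list of 52 took in the remaining Rag, Ragulator and folliculin-complex genes, the mTORC1 core, TSC, GATOR1, GATOR2, KICSTOR, nutrient sensors, mTORC1 targets and lysosome positioning. LNCaP PRMT5 marked 4 of the 52, PC3 PRMT5 2, PC3 METTL3 6 and LNCaP METTL3 none. Of all coding genes these lists marked 3.08%, 4.59%, 11.6% and 0.389%, in that order. Neither RRAGA, LAMTOR3, LAMTOR5 nor FNIP2, the closest relatives of the 10, had a peak in any list, nor had any of the 4 genes of TSC and RHEB, the 3 of GATOR1 or the 7 nutrient sensors. These groups are small beside such shares, and nothing is read from the absences or from the counts over the 52. Promoter windows were at hand for 39 of the 52, none with a PRMT5 summit, and 4 of these genes held CACGTG: TSC2, NPRL3, KICS2 and BORCS6. Of all windows, 0.569% had a LNCaP and 0.446% a PC3 PRMT5 summit, and 7.23% held CACGTG. So few genes give counts near those shares, and nothing is read from them. No window was at hand for MLST8, AKT1S1 or DEPTOR, which had PRMT5 peaks by the rule. An E-box core in the window was mostly not accompanied by a PRMT5 summit there. Of the 2526 windows of all genes that held the core, 2338 had no PRMT5 summit in either line.

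ULK1 and AKT1S1 were the 2 of the 52 with PRMT5 peaks in both lines. ULK1 encodes the kinase that starts autophagy and is held in check by mTORC1. Its peaks lay inside the gene near its end, at 4.33 kb from it in LNCaP PRMT5 (fold 14.4), 4.27 kb in PC3 PRMT5 (fold 8.43) and 4.38 kb in PC3 METTL3 (fold 4.16), and all 3 overlapped. AKT1S1 encodes PRAS40, an mTORC1 inhibitor. Its peaks, 843 bp and 830 bp inside 1 end, had folds of 9.0 in LNCaP and 2.59 in PC3, and were nearer to TBC1D17, named after its values were seen, at 189 bp and 176 bp.

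The others had a peak in LNCaP PRMT5 or PC3 METTL3, or both. MLST8, an mTORC1 subunit gene, had a LNCaP PRMT5 peak of fold 5.09 at 1.59 kb from 1 of its ends, nearer to BRICD5. DEPTOR, an mTOR inhibitor gene, had a LNCaP PRMT5 peak of fold 6.71 and a PC3 METTL3 peak of fold 4.05, both inside it and more than 60 kb from an end. PC3 METTL3 peaks also lay inside MIOS (fold 4.71), ITFG2 (4.10), LARP1 (4.54) and PLEKHM2 (5.01). Each of these METTL3 peaks was 292 bp wide, the median of its list.

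Genes most like RRAGC in their peaks were sought over the 4 lists, by the distance between log2 folds of the highest peak within 3 kb of a gene end, with a missing peak set to 0. Of the 192 coding genes with such a peak in both PRMT5 lists, the nearest was its neighbour MYCBP, which shares the peak, at a distance of 0. Next were the neighbours SGTA and THOP1, both with folds of 17.7 in LNCaP and 12.4 in PC3 and a distance of 0.179, then C19orf47 and PLD3, both with 17.3 and 10.3 and a distance of 0.189. None of these had a METTL3 peak at an end. The likeness rests on 4 libraries and 2 pairs of genes that each share their peaks.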

How the data were processed

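The tools named in the submitters' processing notes are MACS2 2.1.0, Bowtie 1.1.1, Trimmomatic 0.33, bcl2fastq 2.17 and ChIPseeker, and the build is hg38. For settings and duplicate handling: not given in the sources used here. Per the deposited peak names, each library was compared with its own line's control. The authors deposited for each peak a score (10 times the −log10 q, within 1 unit), a fold (ratio over the control's expected signal), a −log10 p, a −log10 q and the summit offset in bp. These were used only within a list.

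Only peaks of chromosomes 1 to 22, X and Y entered. Gene positions and promoter windows (250 bases before to 50 after a start) came from RefSeq tables of GRCh38.p14, whose primary coordinates are those of hg38. They give no exons, so peaks are not placed in exons or introns. All 10 members and all 52 further genes matched, 1 of them by an older symbol. Assignment and motif search were tested on simulated data (Python 3.11.15, pandas 2.3.3). Genes named by rule were the members, the listed genes with a peak and genes with an end within 3 kb of a member's summit. So were the 5 genes most like RRAGC. Named outside this rule were genes beside other peaks (GAA, PLD6, CCT3, TSACC, BRICD5, TBC1D17) and some listed genes without a peak. Members and lists were chosen with earlier results of these data known. CpG and GACGTC comparisons were added after the data were seen.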

Additional observations from a re-analysis of the deposited data

How the results depend on the processing

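In all, 10 counts were recomputed under 59 alternatives, and 48 stayed within 1.5 times the main count. The 59 include the comparison letters GACGTC and TCATGTG and settings that could not move a count. The 48 is therefore not a measure of how firm the counts are. The 6 members with a LNCaP PRMT5 peak and the 0 with a LNCaP METTL3 peak were the same count under all 8 alternatives. These were windows of 500 bp, 1 kb and 5 kb, a −log10 q of at least 3 and a fold of at least 5. The others were any base of the peak, gene ends alone and nearest gene alone. The window, fold and q settings could not move these counts. The nearest LNCaP METTL3 peak was 0.703 Mb away. The LNCaP PRMT5 summits lay within 148 bp of a start, with folds of at least 6.99 and −log10 q of at least 5.30. PC3 PRMT5 marked 4 or 5 members, and overlapping PRMT5 peaks of both lines 2 or 3, or 4 when no overlap was asked, a setting added after the data were seen. The 2 members with a PC3 METTL3 peak became 1 at a −log10 q of at least 3, 1 at a fold of at least 5 and 0 with gene ends alone, and rose to 3 with a window of 5 kb. With gene ends alone, the 52 further genes had LNCaP PRMT5 peaks at 2, PC3 METTL3 peaks at 2 and PC3 PRMT5 peaks at 1. At a −log10 q of at least 3 they had PC3 METTL3 peaks at 1 and PC3 PRMT5 peaks at 1. The 6 members with CACGTG became 2 with TCACGTGA, and the comparison letters GACGTC and TCATGTG, added after the data were seen, were in 0 and 1. LAMTOR1 in PC3 is lost at a −log10 q of at least 3. Depth is unknown, and 93.6% of PC3 METTL3 peaks share their fold and q with another peak of the list. No paired analysis was possible because each group had 1 library and no test was run.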
